A study of Mus musculus with 14 samples.

Results

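FLAG-tagged H3.3 K27M was compared with H3K4me3 inside the same mouse neurosphere cultures, with each FLAG peak list set against the H3K4me3 peak list of the same culture. The members are the 6 deposited lists of the K27M-Tag cultures NSH-A, NSH-B and NSH-C, out of 12 lists in the series, chosen by genotype label and joined by culture letter. On chr1 to chr19 they hold 328522 of the 547763 peaks that the 12 lists have there. The cells came from embryonic hindbrain at day 15.5 and were kept as neurospheres, floating cultures of neural stem cells. All 3 carry Nestin-cre and 1 copy of a lox-stop-lox H3f3a allele that encodes tagged H3.3 with the K27M change, beside a normal copy (H3f3a LSL-K27M-Tag/+). The 3 WT-Tag cultures used for comparison, NSH-D, NSH-E and NSH-F, carry Nestin-cre and the matching allele without the K27M change (H3f3a LSL-WT-Tag/+), so both genotypes have a tagged H3.3 and neither is an untagged control. The K27M-Tag cultures are all female, and 1 of the WT-Tag cultures is male. Cre was under the Nestin promoter, which is active in neural progenitors, so the tagged protein is made only where Cre has acted, beside the H3.3 from the normal H3f3a copy and from the other H3.3 gene. ChIP used the FLAG M2 antibody and an H3K4me3 antibody, and 2 composite input samples, 1 per genotype, were not analysed here.

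H3.3 is the histone H3 variant that is put into chromatin outside replication, above all at active promoters, in gene bodies and at enhancers. The K27M change replaces lysine 27 by methionine, is the recurrent histone mutation of diffuse midline gliomas of children, and lowers H3K27 trimethylation by acting on the methyltransferase PRC2. H3K4me3 marks the nucleosomes around active and poised transcription start sites, and unusually wide H3K4me3 domains are known at genes of cell identity.

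In the K27M-Tag cultures the FLAG lists held more and narrower peaks than the H3K4me3 lists. FLAG peaks numbered 77229 in NSH-A, 57061 in NSH-B and 87258 in NSH-C, with a median width of 383 to 390 bp. H3K4me3 peaks numbered 35038, 34309 and 37627 in the same order, with a median width of 745 to 834 bp, and covered 1.80%, 1.69% and 1.81% of the sequence between the first and last peaks of each chromosome. Read totals were not used here, so the depth behind a list is unknown, and the number of peaks in a list can move with it. Nothing in the labels says whether the cultures came from separate embryos, so p-values measure the spread between these cultures only. Gene positions of the build mm9 were not used here, so regions are given by position and the neural identity of the cells was not checked against marker genes.

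FLAG summits lay inside H3K4me3 peaks far more often than the length of those peaks would hold at even density. A FLAG summit is the base of highest signal in a FLAG peak. It fell inside an H3K4me3 peak of the same culture for 22436 of the summits in NSH-A (29.1%), 17051 in NSH-B (29.9%) and 25110 in NSH-C (28.8%), a mean of 29.2% ± 0.576 (SD, n = 3). A further 5.96% ± 0.564 (n = 3) of FLAG peaks overlapped H3K4me3 with their summit outside it, and 64.8% ± 1.13 (n = 3) had no overlap. The 3 cultures were close to each other on all of these shares. Most FLAG peaks lay away from H3K4me3, while the 1.77% ± 0.0689 of sequence under H3K4me3 held 29.2% of the summits.

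The distance from a FLAG summit to the nearest H3K4me3 summit had a median of 2548 bp in NSH-A, 2202 bp in NSH-B and 2396 bp in NSH-C. The distances were widely spread: the 10th percentile was 130 to 147 bp, the 25th was 633 to 696 bp and the 75th was 13935 to 14513 bp. The share within 1000 bp of an H3K4me3 summit was 33.7% ± 1.23 (n = 3), and within 10000 bp it was 69.6% ± 0.402 (n = 3). Of the summits outside H3K4me3, the median distance to the nearest edge was 6622, 6375 and 6216 bp, and those inside lay a median of 356, 329 and 335 bp from the nearer edge. Seen from the H3K4me3 side, the median distance from an H3K4me3 summit to the nearest FLAG summit was 747, 1122 and 610 bp. The largest of these belonged to NSH-B, the culture with the shortest FLAG list.

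Per length of sequence, FLAG summits were denser inside H3K4me3 peaks than outside them, and sparser far from H3K4me3 than close to it. Density inside H3K4me3 was 517 summits per Mb in NSH-A, 419 in NSH-B and 575 in NSH-C. In the first 1000 bp outside it was 209, 175 and 234 per Mb, and more than 50000 bp from any edge it was 5.29, 3.92 and 6.03 per Mb. Density inside was thus 2.44 ± 0.0390 (n = 3) times that of the adjoining 1000 bp and 99.98 ± 6.07 (n = 3) times that of sequence beyond 50000 bp. Assembly gaps and unmappable sequence were not taken out of these lengths, and their effect on the ratios is unknown. The 3 cultures kept the same order, NSH-C above NSH-A above NSH-B, in each of these zones. This is also the order of their FLAG list lengths, and the part of list length in it was not tested.

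With peaks of all widths pooled, density within H3K4me3 had 2 high zones. It was 626 ± 103 per Mb (n = 3) from 100 to under 250 bp inside an edge and 528 ± 70.4 per Mb at 2000 bp or more inside. Between them, from 500 to under 1000 bp inside, it was 426 ± 80.3 per Mb, and in each culture this zone was the lowest of the 6 zones inside. The zones mix different sets of peaks: those 500 bp or more inside exist only in peaks of about 1000 bp or more. Zones nearer an edge also hold narrower peaks, which had more FLAG summits per kb (mean 0.811 under 500 bp, 0.405 at 1000 to under 2000 bp). The first 100 bp inside an edge had 479 ± 51.5 per Mb, fewer than the next zone further inside. Outside, it went from 277 ± 19.2 per Mb in the first 100 bp to 86.6 ± 20.4 between 1000 and 2000 bp, 25.3 ± 5.49 between 10000 and 20000 bp and 2.83 ± 0.666 beyond 100000 bp. The cultures differed in the first 500 bp outside: in NSH-A density was 242 per Mb between 100 and 250 bp and 239 between 250 and 500 bp, in NSH-B it went from 212 to 201, and in NSH-C from 252 to 272.

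**Figure D1:**
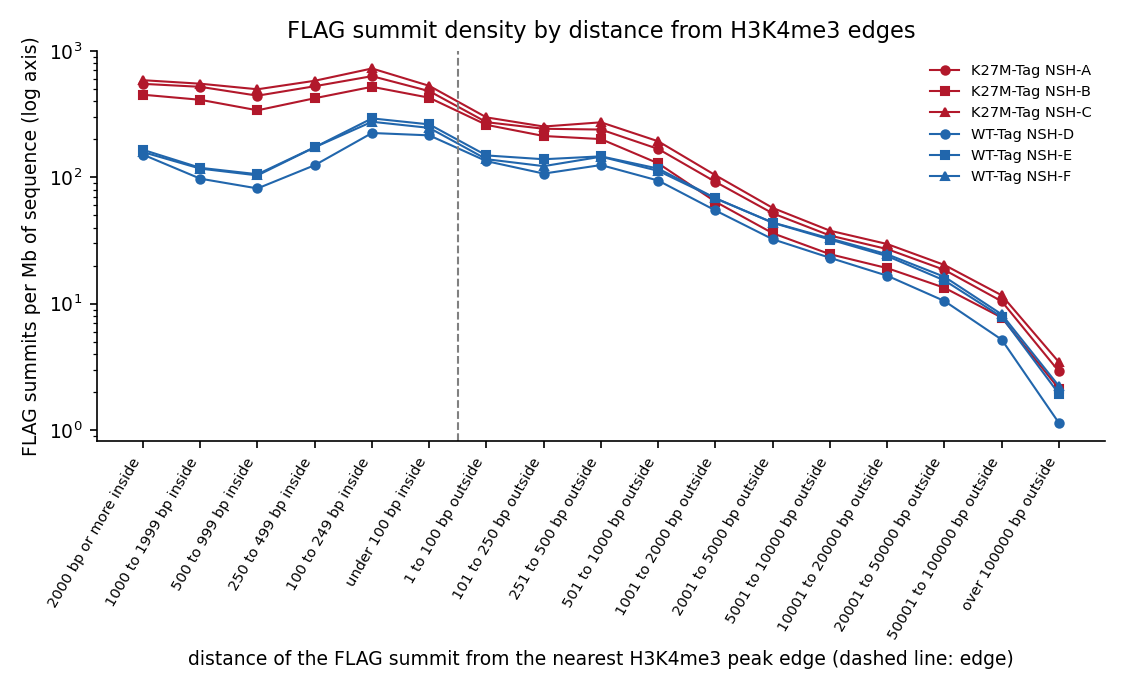
FLAG summits per Mb of sequence (log axis) by distance of the summit from the nearest H3K4me3 edge of the same culture, with 1 line per culture and a dashed line at the edge. The K27M-Tag lines peak from 100 to under 250 bp inside and fall to between 2.13 and 3.45 per Mb beyond 100000 bp. They lie above all WT-Tag lines inside H3K4me3, and up to 1000 bp outside, beyond which NSH-B lies among them.

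The strongest FLAG peaks were the closest to H3K4me3. FLAG peaks were ranked within each list by the authors' score and split into 10 equal groups. In the lowest group 19.1%, 20.5% and 18.2% of summits lay inside H3K4me3 in NSH-A, NSH-B and NSH-C, and in the highest group 49.3%, 45.9% and 52.0%. The mean share rose at every step between them, and the median distance to an H3K4me3 summit went from 3834 ± 372 bp in the lowest group to 834 ± 99.3 bp in the highest. The authors' fold enrichment had a median of 4.89 ± 0.0692 for FLAG peaks with their summit inside, 4.31 ± 0.0749 for those outside within 5000 bp and 4.37 ± 0.0204 for those beyond 50000 bp. FLAG peaks inside were also wider, with a median of 491, 459 and 494 bp, than those beyond 50000 bp, with 353, 361 and 346 bp. Where FLAG and H3K4me3 peaks overlapped, 48.4% ± 0.932 of the FLAG peaks lay wholly inside the H3K4me3 peak, 35.1% ± 1.47 crossed an edge and 16.5% ± 1.46 enclosed an H3K4me3 peak.

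FLAG in the WT-Tag cultures was less concentrated on H3K4me3 by the same measures. The share of summits inside was 15.8%, 15.0% and 14.1% in NSH-D, NSH-E and NSH-F, so the K27M-Tag cultures were higher by 14.2 percentage points and the groups did not overlap (exact permutation test over cultures, two-sided, p = 0.1, which is the smallest that 3 against 3 can give, and 0.2 after Benjamini-Hochberg adjustment over 8 comparisons). The median summit distance was 5383, 6359 and 7155 bp, all above the K27M-Tag values (difference in means -3917 bp, exact permutation p = 0.1, adjusted 0.2). The log2 ratio of density inside to density beyond 50000 bp in the K27M-Tag cultures had values of 6.61, 6.74 and 6.58, against 6.01, 5.64 and 5.49 for WT-Tag (difference 0.93, exact permutation p = 0.1, adjusted 0.2). Mean density was 2.94 times as high in K27M-Tag as in WT-Tag cultures inside H3K4me3, 1.69 times in the first 1000 bp outside and 1.52 times beyond 50000 bp. The lists differ in length between genotypes, with 32466 to 46880 FLAG peaks in WT-Tag cultures. With every list shortened to the same number of top-scoring peaks, 32466 for FLAG and 30884 for H3K4me3, the shares inside were 34.7% and 15.8% and the difference was 18.9 percentage points. This cut kept all FLAG peaks of NSH-D but only the higher-scoring part of each K27M-Tag FLAG list. The share inside rose with FLAG score, so the cut cannot tell what part list length has in the difference.

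H3K4me3 peaks were then split by width, and FLAG was present at nearly all of the widest. Over all widths a FLAG peak overlapped by at least 1 bp 56.4% of H3K4me3 peaks in NSH-A, 47.6% in NSH-B and 60.7% in NSH-C. Of peaks of 4000 bp and over, 893 of 937 had FLAG in NSH-A (95.3%, 95% Wilson interval 93.8 to 96.5), 731 of 801 in NSH-B (91.3%, 89.1 to 93.0) and 845 of 869 in NSH-C (97.2%, 95.9 to 98.1). Of peaks under 500 bp, 48.3% (47.4 to 49.2), 41.1% (40.2 to 42.0) and 53.5% (52.7 to 54.3) had FLAG. These intervals cover counting error only. The widest class thus stood far above the figure over all widths in each culture, and the narrowest stood below it. A wider peak has more room for a FLAG peak, so this share would rise with width even at equal FLAG density. The part of room in the shares by width was not tested, and summits per kb are given further on.

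Presence rose slowly up to 2000 bp and steeply above. It was 49.7%, 42.2% and 54.7% at 500 to under 1000 bp, 54.1%, 44.5% and 59.9% at 1000 to under 2000 bp and 77.2%, 66.1% and 80.7% at 2000 to under 4000 bp. Each of the 4 steps was upward in each of the 3 cultures. The widest class exceeded the narrowest by 47.0, 50.2 and 43.7 percentage points (mean 47.0 ± 3.23, n = 3), with an exact sign-flip permutation p of 0.25 (two-sided), the smallest that 3 cultures can give, and 0.333 after adjustment over the 8 comparisons. In WT-Tag cultures the same difference was 27.8, 29.8 and 32.7 points, lower by 16.9 with no overlap of the groups (exact permutation p = 0.1, adjusted 0.2). The size of this gap between genotypes depended on the setting: it was 25.4 points with equal list sizes, 28.0 and 32.8 with the higher-scoring 50% of FLAG and of H3K4me3 peaks, and 31.1 counting only FLAG summits inside. With 5 equal groups by width it was 27.1, from a rise of 29.7 points in K27M-Tag and 2.65 in WT-Tag cultures. The WT-Tag share did not rise with each step: it was 24.4% ± 3.09 under 500 bp, 16.98% ± 3.27 at 1000 to under 2000 bp and 54.5% ± 4.80 at 4000 bp and over.

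**Figure D2:**
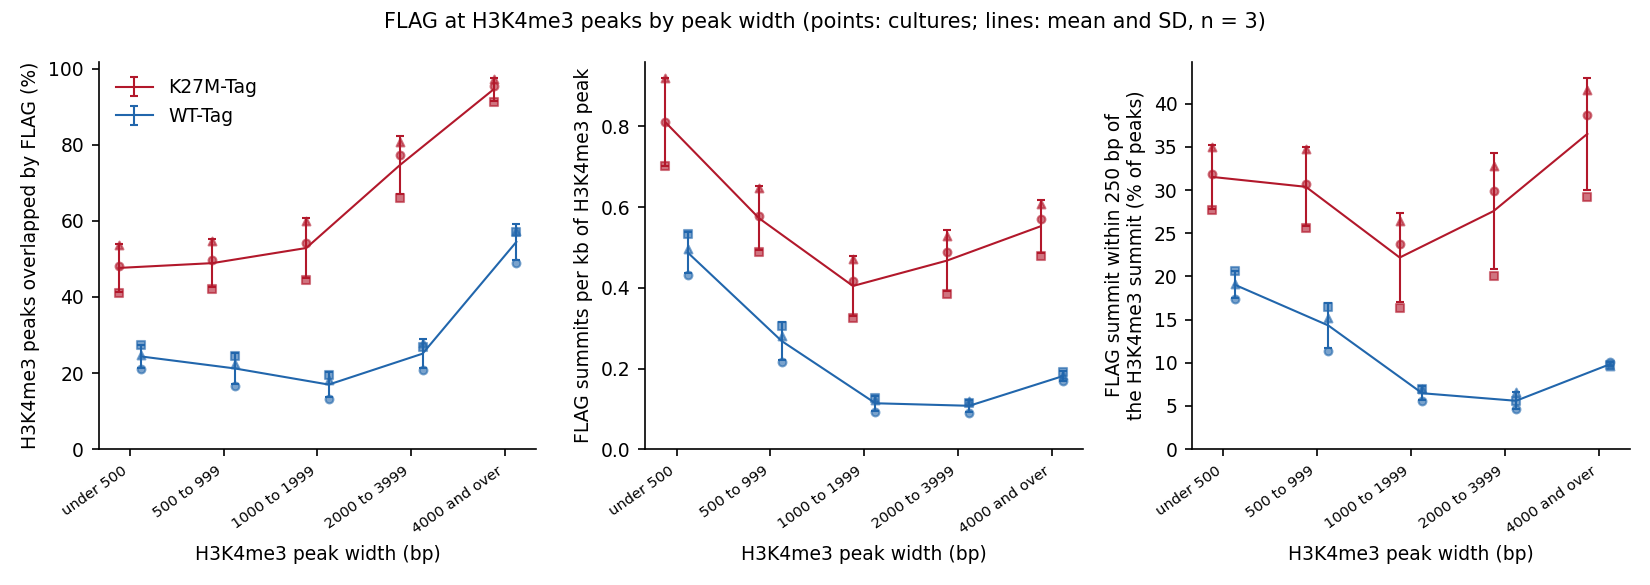
Measures of FLAG at H3K4me3 peaks by width class: the share of peaks overlapped by FLAG, FLAG summits per kb of peak, and the share of peaks with a FLAG summit within 250 bp of the H3K4me3 summit. Points are cultures and lines are means with SD (n = 3). In K27M-Tag cultures the first measure rises from 47.6% to 94.6%, while the second and the third are lowest at 1000 to under 2000 bp, at 0.405 per kb and 22.2%.

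Per length of H3K4me3 peak the order of the width classes was different. FLAG summits per kb of H3K4me3 peak were 0.811, 0.701 and 0.919 in the narrowest class, 0.416, 0.325 and 0.472 at 1000 to under 2000 bp and 0.570, 0.480 and 0.608 in the widest. Density was lowest in the middle of the width range and was higher in the narrowest class than in the widest in every culture. The log2 ratio of widest to narrowest was -0.51, -0.55 and -0.60 (mean -0.55 ± 0.04, n = 3, exact sign-flip permutation p = 0.25, adjusted 0.333), against a mean of -1.42 in WT-Tag cultures. The share of bases under FLAG had the same shape, with 41.6% ± 6.06 in the narrowest class, 24.1% ± 5.40 at 1000 to under 2000 bp and 38.1% ± 7.39 in the widest.

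In a window of 250 bp on each side of the H3K4me3 summit, the narrowest and the widest class came closer together, and the class of 1000 to under 2000 bp was the lowest in each culture. A FLAG summit lay in that window for 31.8%, 27.7% and 35.01% of peaks under 500 bp, 23.8%, 16.4% and 26.4% of peaks of 1000 to under 2000 bp, and 38.7%, 29.2% and 41.5% of peaks of 4000 bp and over. The widest class exceeded the narrowest by 6.90, 1.51 and 6.53 points, a mean of 4.98 ± 3.01 (n = 3), with the smallest value in NSH-B. Counting FLAG summits anywhere inside the peak, the same difference was 69.1 points.

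The FLAG summits at narrow peaks went with weak H3K4me3. Within the class under 500 bp, split into 3 equal groups by H3K4me3 score, peaks of the lowest group had FLAG in 59.6%, 48.1% and 63.1% of cases, and those of the highest group in 32.8%, 28.7% and 39.97%. The median H3K4me3 fold in this class was 4.37 ± 0.143 for peaks with FLAG and 4.84 ± 0.174 for peaks without. The same direction held for the other classes under 4000 bp: at 500 to under 1000 bp the shares were 66.6% ± 6.26 in the lowest and 32.7% ± 5.71 in the highest score group, and at 2000 to under 4000 bp they were 79.1% ± 5.69 and 69.0% ± 8.68. In the widest class the score groups ranged from 92.1% to 96.1% on average. When only the higher-scoring 50% of each H3K4me3 list was kept, 271, 374 and 595 peaks under 500 bp remained, with FLAG at 10.7%, 9.36% and 19.8% of them. Their FLAG summits per kb were then 0.186, 0.147 and 0.368, below the 0.569, 0.480 and 0.609 of the widest class, which turned the per-kb order round (log2 ratio 1.35). Narrow peaks within 5000 bp of a peak of 2000 bp or over were 18.1% ± 0.319 of the class and had FLAG in 45.3%, 36.2% and 48.7% of cases, slightly fewer than the 48.9%, 42.2% and 54.6% of those farther away.

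Wide peaks often held several FLAG peaks. The mean number of FLAG summits inside an H3K4me3 peak was 0.2504 ± 0.0343 under 500 bp, 1.25 ± 0.203 at 2000 to under 4000 bp and 2.95 ± 0.365 at 4000 bp and over. In the widest class 58.3%, 47.2% and 63.3% of peaks held 3 or more summits. Peaks of 2000 to under 4000 bp held 35.4% ± 1.11 of all FLAG summits inside H3K4me3 on 38.2% ± 0.558 of its bases, and the widest class held 11.99% ± 0.810 on 10.9% ± 0.654. The narrowest class held 14.9% ± 1.33 of the summits on 9.24% ± 0.666 of the bases. FLAG peaks inside narrow H3K4me3 peaks had the higher fold, 5.48 ± 0.158 under 500 bp against 4.65 ± 0.118 at 2000 to under 4000 bp and 4.91 ± 0.162 in the widest class.

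Inside wide H3K4me3 peaks, FLAG summits were placed close to the H3K4me3 summit or well away from it, and less often between. In peaks of 1000 bp and over there were 0.972, 0.614 and 1.08 FLAG summits per kb within 50 bp of the H3K4me3 summit in NSH-A, NSH-B and NSH-C. At 250 to 400 bp there were 0.286, 0.238 and 0.318 per kb, and beyond 700 bp 0.532, 0.444 and 0.566 per kb. The first zone was 3.40, 2.58 and 3.39 times as dense as the trough, and the far zone 1.86, 1.87 and 1.78 times. These zones were set after the profile was seen, so no test is given.

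The trough was present in all 3 classes of 1000 bp and over, and its contrast with the centre rose with width in each culture. The ratio of the first 50 bp to 250 to 400 bp was 2.64 ± 0.455 at 1000 to under 2000 bp, 3.61 ± 0.606 at 2000 to under 4000 bp and 4.34 ± 0.694 at 4000 bp and over. WT-Tag cultures had the same shape at lower density: 0.238 ± 0.0200 per kb in the first 50 bp, 0.0583 ± 0.00972 at 250 to 400 bp and 0.148 ± 0.0187 beyond 700 bp. Taken as a single contrast, density within 250 bp of the H3K4me3 summit against the rest of the peak gave log2 ratios of 0.26, -0.02 and 0.28 (mean 0.17 ± 0.17, n = 3, exact sign-flip permutation p = 0.5, adjusted 0.571). NSH-B had no excess there, and without it the mean was 0.27. The 250 bp window takes in both the dense centre and part of the trough. With a window of 500 bp in peaks of 2000 bp and over the mean was -0.19.

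**Figure D3:**
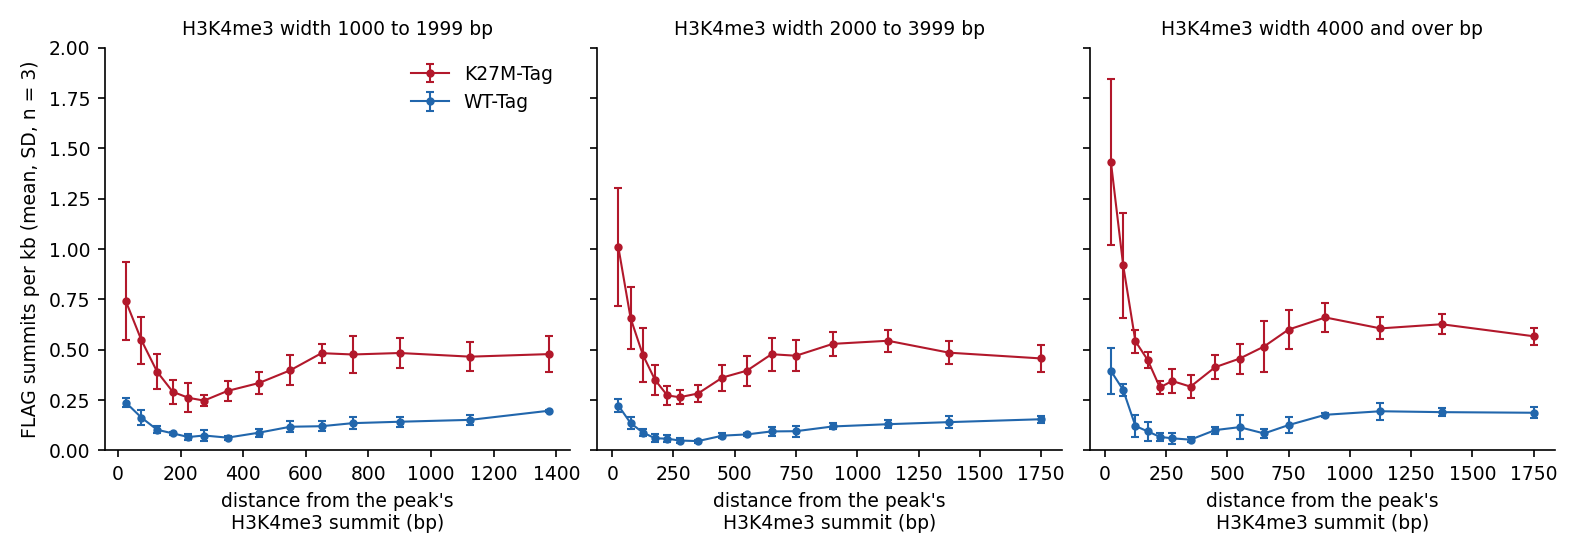
FLAG summits per kb of H3K4me3 peak by distance from that peak's own H3K4me3 summit, up to 2000 bp, in 3 width classes, as mean and SD over 3 cultures. In each K27M-Tag panel the density is highest in the first 50 bp, is low between 200 and 400 bp and is higher again beyond 700 bp. WT-Tag values lie lower at each distance.

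With widths pooled, the longer side of wide H3K4me3 peaks, measured from the summit, held FLAG summits about in proportion to its length. The width classes differed in this. In peaks of 1000 bp and over, 68.1%, 68.0% and 68.5% of the FLAG summits more than 250 bp from the H3K4me3 summit lay on the longer side, which held 66.9%, 67.2% and 67.6% of those bases. In the widest class the shorter side was the denser in each culture, with 0.604, 0.523 and 0.661 summits per kb against 0.525, 0.445 and 0.554. At 1000 to under 2000 bp the longer side was the denser, with 0.416, 0.342 and 0.468 against 0.319, 0.284 and 0.380.

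A culture's own H3K4me3 list fitted its FLAG list no better than the lists of the other 2 cultures. The share of NSH-A FLAG summits inside H3K4me3 was 29.1% with its own list, 26.9% with that of NSH-B and 29.9% with that of NSH-C. For NSH-B it was 29.9% with its own list, 32.3% with that of NSH-A and 33.6% with that of NSH-C. For NSH-C it was 28.8% with its own list, 27.8% with that of NSH-A and 25.9% with that of NSH-B. Own minus other was 0.62, -3.07 and 1.94 points (mean -0.17 ± 2.60, n = 3, exact sign-flip permutation p = 1, adjusted 1). The H3K4me3 list of NSH-C, the longest, gave the highest share for each FLAG list. FLAG summits inside H3K4me3 recurred at close positions between cultures, with a median distance of 204 bp from NSH-A to NSH-B and 131 bp from NSH-A and from NSH-B to NSH-C. This was not particular to summits inside. For summits beyond 50000 bp from an edge the medians were 383.5 bp from NSH-A to NSH-B, 150 bp from NSH-A to NSH-C and 134 bp from NSH-B to NSH-C.

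The same regions carried FLAG in culture after culture. H3K4me3 peaks of the 3 cultures merged into 39929 regions, of which 27648 had a peak in all 3 lists. Of these 46.1% had FLAG in 3 of 3 cultures, 33.8% in none, 9.43% in 1 and 10.7% in 2. By mean width, FLAG was in all 3 cultures at 34.0% of regions under 500 bp, 41.1% at 1000 to under 2000 bp, 62.9% at 2000 to under 4000 bp and 90.4% at 4000 bp and over. Only 17 of 987 regions of 4000 bp and over had no FLAG in any culture. Among 23557 WT-Tag regions with a peak in all 3 lists, 13.8% had FLAG in 3 of 3, and in the widest class 40.6%.

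**Figure D4:**
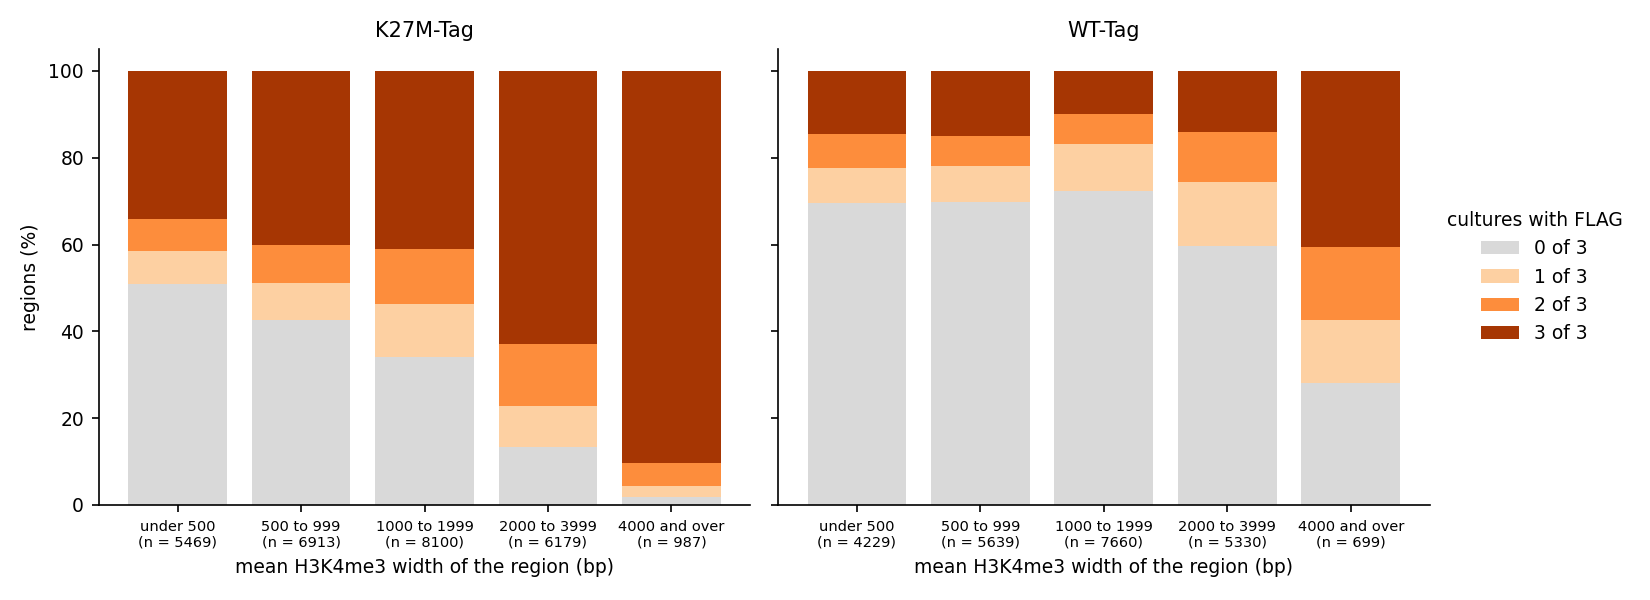
Regions with H3K4me3 in all 3 cultures of a genotype, split by mean width, with bars showing the share that had FLAG in 0, 1, 2 or 3 cultures and n the number of regions. In K27M-Tag the share with FLAG in 3 of 3 goes from 34.0% in the narrowest to 90.4% in the widest class, and in WT-Tag from 14.6% to 40.6%.

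Single regions show how FLAG sits in the widest domains. The widest, chr13:83852426-83881656 (mm9), had 29221, 29210 and 29007 bp of H3K4me3 in the 3 cultures and held 14, 10 and 15 FLAG summits covering 6881, 4063 and 9821 bp. The next, chr7:77486936-77509018, held 8, 4 and 11 FLAG summits in 21638 ± 250 bp of H3K4me3. The third, chr3:88008732-88030282, was mostly under FLAG, with 17823, 15771 and 16693 of its 21500, 20779 and 21379 bp and 15, 12 and 9 summits. Its strongest FLAG peak was above the 99th percentile of score in each list. The most FLAG summits were in chr4:82139861-82161030, with 18, 12 and 15 in 20970 ± 188 bp of H3K4me3, and the first and the third of the widest regions came next by this count. The number of bases under FLAG differed more between cultures than the number under H3K4me3 did in all 4 of these regions, and NSH-B had the fewest bases under FLAG in each. In the WT-Tag cultures NSH-D, NSH-E and NSH-F, the chr3 region also held 12, 11 and 10 FLAG peaks. The chr13 region held 2, 5 and 1 there, the chr7 region 1, 1 and 1, and the chr4 region 3, 2 and 2.

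**Figure D5:**
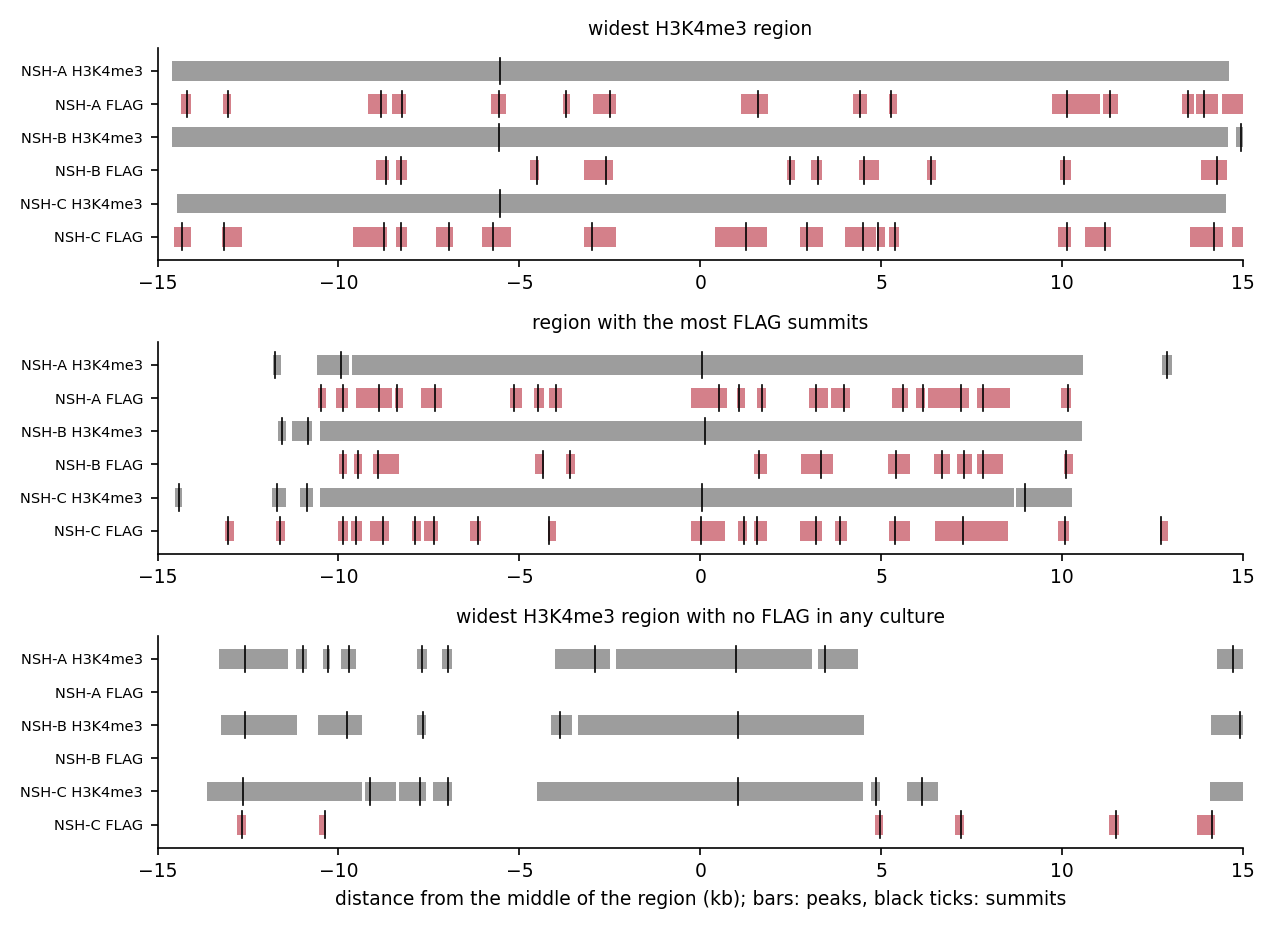
Peaks (bars) and summits (black ticks) of H3K4me3 in grey and FLAG in red in the 3 K27M-Tag cultures, within 15 kb of the middle of 3 regions. The upper 2 panels hold rows of separate FLAG peaks along a long H3K4me3 domain, with 14, 10 and 15 summits in the widest region. In the lower panel FLAG is seen only in NSH-C and outside the H3K4me3 region at the middle.

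FLAG was missing from a few wide domains. The widest without FLAG in any culture was chr9:91253734-91262766, with 8005, 8449 and 9008 bp of H3K4me3. It was followed by chr7:80696409-80703500 with 7092, 6399 and 6766 bp and chr8:67206797-67212579 with 5767, 5516 and 5445 bp. Their H3K4me3 was not always weak: the authors' fold was 66.8, 74.7 and 54.6 in the second, and 22.2, 29.0 and 32.5 in the first. No WT-Tag culture had a FLAG peak in any of the 3 regions. Just beyond the first region, NSH-C had a separate short H3K4me3 peak that a FLAG peak overlapped. The lack of FLAG there thus depends on where H3K4me3 peaks were divided.

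At the other end, some narrow H3K4me3 peaks coincided with the strongest FLAG peaks. Of the 1861 regions under 500 bp with FLAG in all 3 cultures, chr12:3887852-3888489 lay under FLAG for its whole 638 bp in each culture, with a FLAG fold of 13.1, 11.9 and 13.8 and an H3K4me3 fold of 5.53, 5.95 and 6.72. The regions chr5:139864963-139865417 and chr5:139865925-139866262 lay under 1 and the same FLAG peak, with a fold of 13.7, 10.3 and 11.8 and its summit in the first of them. FLAG score was at the 99.85 percentile or above in all 3 regions and cultures. FLAG peaks were also called there in each WT-Tag culture.

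Some FLAG far from H3K4me3 recurred in all 3 cultures as well. Of 35654 merged FLAG regions found in all 3 cultures, 1754 lay over 50000 bp from every K27M-Tag H3K4me3 peak. The highest-ranked were chr17:31587014-31588836 with a FLAG fold of 9.03, 7.92 and 14.3, chr7:143584178-143588469 with 10.1, 10.8 and 11.4, and chr19:15742246-15743588 with 9.38, 11.99 and 11.95. All 3 also had FLAG peaks in each WT-Tag culture, and the chr17 region held 206 bp of H3K4me3 in the WT-Tag culture NSH-D. Summits beyond 50000 bp had a close FLAG summit in another culture less often than those inside, by an amount that depended on the pair. From NSH-A to NSH-B, 43.0% of those beyond 50000 bp lay within 250 bp of a FLAG summit of the other culture, against 54.6% inside. The shares were 61.6% and 66.6% from NSH-A to NSH-C, and 67.3% and 67.7% from NSH-B to NSH-C. FLAG summits were 99.98 ± 6.07 (n = 3) times as dense inside as beyond 50000 bp. A neighbour within 250 bp is thus met by density alone far more often inside. The shares were not corrected for this, so they do not show which summits recurred better.

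The pattern was much the same on each chromosome. The mean share of FLAG summits inside H3K4me3 ran from 26.4% on chr12 to 33.1% on chr13. The median summit distance ran from 1949 ± 87.1 bp on chr19 to 3737 ± 197 bp on chr12, and chr19 was also the second densest in H3K4me3, with 20.0 peaks per Mb after 22.7 on chr11. On each of the 19 chromosomes the class of 4000 bp and over had more FLAG than the class under 500 bp, with mean shares of 91.2% to 98.8% against 43.4% to 52.9%.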

How the data were processed

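Each of the 12 ChIP-seq libraries has its own deposited peak list in narrowPeak order, with mm9 in the peak names. The submitters' processing notes name BWA 0.7.17-r1188, MACS2 2.2.7.1, bedtools 2.29.2 and the builds mm9 and dm6, without roles. Settings, control and threshold are not given in the sources used here; if the composite inputs were the controls, the lists of a genotype share 1. Per the labels, Drosophila chromatin was spiked in for H3K4me3, and the lists carry no factor from it. The deposited scores equal 10 times the deposited −log10 q-values to within 1 unit, and the lowest −log10 q was 2.00 to 2.05. The authors' score, −log10 p and q and fold ratio were used only to rank or describe peaks within a list.

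Summits were start plus column 10. Distances, overlaps (1 bp or more) and densities were computed on chr1 to chr19 with Python 3.11.15, numpy 2.4.6 and scipy 1.17.1, after tests on simulated peaks. Density is summits per length of sequence at that distance, between the first and last peaks of each chromosome. Profile bins with under 40 kb of peak in a culture are not shown. Cultures were compared by exact permutation (smallest p 0.1) or exact sign-flip tests (smallest p 0.25), two-sided, adjusted over 8 comparisons; peaks are not replicates. Regions named are the 3 first by mean width, by mean width without FLAG, by FLAG summits, by lowest FLAG percentile among narrow regions, and by lowest FLAG percentile beyond 50 kb. Alternatives were score filters, equal list sizes, joined peaks, all contigs, other overlaps, classes, windows and distances, each culture left out, and experiment number as a block. The members, width classes and tests were chosen with earlier results of these data known, and the zones around the H3K4me3 summit, the split of narrow peaks and the region maps after the profiles were seen.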

Additional observations from a re-analysis of the deposited data

Results flagged for a closer look

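Some steps in FLAG presence between H3K4me3 width classes went one way in all 3 K27M-Tag cultures and the other way in all 3 WT-Tag cultures. All pairs of width classes were screened for this, and only the 3 pairs given next met it. Between the class under 500 bp and that of 500 to under 1000 bp the share of H3K4me3 peaks with FLAG differed by a mean of 1.26 percentage points in K27M-Tag and -3.15 in WT-Tag cultures (wider minus narrower, here and in what follows). Between the class under 500 bp and that of 1000 to under 2000 bp the differences were 5.24 and -7.39 points, and between the latter and that of 500 to under 1000 bp they were 3.97 and -4.24 points. With the equal window of 250 bp around the H3K4me3 summit, the widest class differed from the narrowest by 4.98 points in K27M-Tag and -9.22 points in WT-Tag cultures. These differences between the genotypes were not tested. The K27M-Tag FLAG lists are longer than the WT-Tag lists, and the part of list length in these steps was not tested. Single cultures were not screened for outlying values, since each group has 3.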

How the results depend on the processing

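Over 8 results and 90 alternative values, 86 kept their direction and 4 reversed. Many of these values could not reverse. With the experiment number as a block the differences are the same by arithmetic. Leaving out 1 culture cannot reverse a difference between groups that do not overlap, or a result with the same sign in every culture. The count is thus no measure of stability. The log2 ratio of FLAG summits per kb between the widest and narrowest classes was 1.35 with the higher-scoring 50% of H3K4me3 peaks, where few narrow peaks remain. Own-minus-other share inside H3K4me3 was 0.0441 points with equal list sizes, and from -0.390 to 0.0544 when 1 culture at a time was omitted, the higher value being that without NSH-B. The centre contrast was -0.19 with a 500 bp window in peaks of 2000 bp and over. For these last 3 the cause was not tested.

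Other values that moved by over 1.5 times kept their direction. The widest-minus-narrowest share with FLAG was 81.3 points with the higher-scoring 50% of H3K4me3 peaks, 29.7 with 5 equal groups by width and 4.98 with the equal window; its per-kb log2 ratio was -0.83 with 5 equal groups. Its K27M-Tag minus WT-Tag difference was 28.0 with the higher-scoring 50% of FLAG peaks, 32.8 with that of H3K4me3 peaks, 25.4 with equal list sizes, 31.1 counting only summits inside and 27.1 with 5 equal groups. The centre contrast was 0.27 without NSH-B, and own minus other was -0.0598 and -0.0534 with the higher-scoring 50% of FLAG and of H3K4me3 peaks.

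The experiment number is shared across genotypes. Used as a replicate block it cannot change a difference in means of 3 against 3. The differences were thus again 14.2 points, -3917 bp, 0.93 and 16.9 points. Each had an exact sign-flip p of 0.25, the smallest that 3 pairs can give. Correlations over regions between same-numbered cultures were small, at 0.0295, 0.0337 and -0.00957 for H3K4me3 and 0.00357, 0.0101 and 0.0130 for FLAG. Between different-numbered cultures they ran from -0.0479 to 0.0236 for H3K4me3 and from -0.0173 to 0.00585 for FLAG. The highest value for each antibody was thus of a same-numbered pair. As all were small, the number is not treated as a pairing. No p here could pass 0.05 with 3 cultures a group, so p-values say nothing of stability. Depth is unknown and each list ends at a lowest −log10 q of 2.00 to 2.05, so absence of a FLAG peak is not absence of FLAG signal.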
